A study of Mus musculus with 6 samples.

Results

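Solute carrier genes were examined in mouse liver that received Ly6d by viral gene transfer. The members were all genes whose symbol begins with Slc and a digit or with Slco, and 34 such genes, all protein-coding and from 18 numbered families, are among the 1834 genes of the deposited table. The annotation used here holds 394 genes with such symbols. Solute carrier genes outside the table were not analysed here. The study compared 3 liver libraries from mice given an adeno-associated virus (AAV) with green fluorescent protein (AAV-GFP, genotype WT, called controls below) with 3 liver libraries from mice given an AAV with Ly6d (AAV-Ly6d, genotype Ly6d overexpression), all on the same diet. Ly6d encodes a small membrane-anchored protein, and the series title ties the experiment to metabolic dysfunction-associated steatotic liver disease (MASLD). The sources used here do not give the strain, age or sex of the mice, the promoter or dose of the vectors or the time after injection, nor whether each library is a separate animal. The p-values therefore set the group difference only against the spread within these groups of samples, and that spread may be technical.

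Solute carriers are membrane proteins that move small molecules across the plasma membrane or the membranes of organelles, by facilitated diffusion or by coupling the substrate to the gradient of an ion or of another solute. The number after Slc names a family that usually shares a type of substrate. Hepatocytes depend on them for taking up bile acids, bilirubin and drugs from the blood, for exchanging glucose in both directions, and, through the Slc25 carriers of the inner mitochondrial membrane, for passing nucleotides, amino acids and cofactors between cytosol and mitochondrial matrix.

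The values are normalised read counts. How the 1834 genes of the table were chosen is not given, and in 84.5% of those tested the 2 groups do not overlap. A gene was tested when 3 or more libraries had a value of 1 or more, and it was said to have risen or fallen when limma's Benjamini-Hochberg adjusted p over all 1780 tested genes was under 0.05. Ly6d itself held 56.1, 9.68 and 182 in the controls against 3181, 1799 and 3275 with AAV-Ly6d. The recovered reads of the table summed to between 3248078 and 4359932 per library, which is part of each library only. On the first principal component AAV-GFP replicate 2 scored -49.9 and the remaining controls -15.4 and -18.1. Among markers of other liver cells, 9 of 17 endothelial genes were in the table and all 9 fell, with a summed value of 7472 to 11800.1 in AAV-GFP and 2718 to 3489 in AAV-Ly6d. Of 12 stellate cell markers 7 were in the table and 5 fell, with sums of 3386 to 4932 and 1037 to 2299. Of 5 erythroid markers 4 were in the table and 1 fell, with sums of 2704 to 5832 and 1896 to 2849. Of 9 hepatocyte markers 2 were in the table, Apoa1 and Hnf4a, and both rose, with sums of 42284 to 94031 and 140119.6 to 148264, while the 1 of 7 cholangiocyte markers in the table, Sox9, rose as well. Of the 8 macrophage and 5 lymphocyte markers listed 0 were in the table, so they could not be analysed here. None of the markers in the table was at 0 throughout, and fewer cells of a type and less RNA per cell cannot be told apart in whole liver. Of all tested genes 28% fell and 15.9% rose, and markers outside the table were not scored. The part of the marker shifts in the transporter values below was not tested.

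Of the 34 members 33 were tested and 17 passed, 7 that rose and 10 that fell. This is 51.5% of the members, where 43.9% of all tested genes passed, and the shares in each direction were also near those of the table (21.2% against 15.9% for rises, 30.3% against 28% for falls). Of the 7 rises, Slc7a15 and Slc35f1 had 0 reads in every control and met the filter only through the group where they are high. Over the 31 members with a value of 1 or more in both groups, 5 rose (16.1%, against 15.6% of the 1735 such genes) and 15 passed in all (48.4%, against 42.7%). The groups did not overlap for 29 of 33 members (87.9%, against 84.5% of all tested genes). The median log2 fold change of the members was -0.58, against -0.67 for all tested genes. Transporters as a whole therefore moved about as often as the rest of this table, and the data below concern which of them moved and in which direction. The adjusted p-values lay close to the threshold: the 17 ranged from 0.0272 to 0.0497, and 12 of the 16 members that did not pass had values between 0.0502 and 0.0637.

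**Figure D1:**
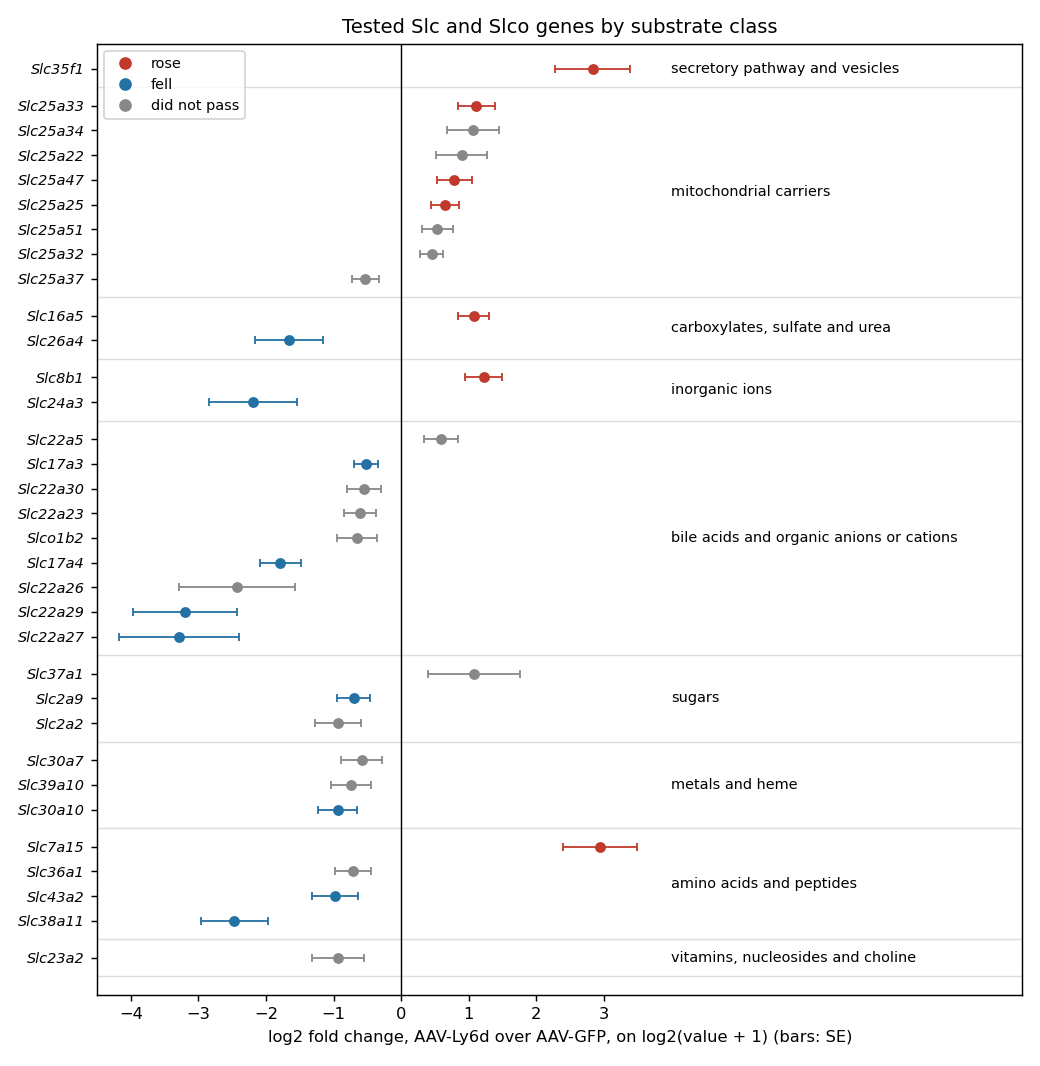
Log2 fold change (AAV-Ly6d over AAV-GFP, on log2(value + 1), x axis) of the 33 tested genes, grouped by substrate class, with points for the limma estimate, bars for its SE and colours for the call. All but 1 of the 8 mitochondrial carriers lie to the right of 0, and all but 1 of the 9 genes for bile acids and organic ions lie to the left. The carriers were set apart as a group after their values had been seen.

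How many members passed depended on single libraries. Limma called 13 when AAV-GFP replicate 2 was left out (34.9% of all genes tested then), 12 of them among the 17. Leaving out AAV-GFP replicate 1 gave 6 calls (7.68% of all genes), AAV-GFP replicate 3 gave 2 (7.97%), AAV-Ly6d replicate 2 gave 1 (5.89%) and AAV-Ly6d replicate 3 gave 1 (1.08%). Leaving out AAV-Ly6d replicate 1 gave 0 among the members and 0.00% of all genes, with 17 members at an unadjusted p under 0.05. Calls were thus also lost over the whole table. None of the 33 changed direction in any of the alternatives run. Rescaling each library by its median ratio over the table moved the median log2 fold change of all tested genes from -0.67 to -0.33, and the split of the calls from 7 rises and 10 falls to 11 rises and 6 falls. Of all genes 52.2% then passed and 36.2% rose. EdgeR's quasi-likelihood test on the recovered reads called 10 members on the deposited scale (5 rose and 5 fell, with 26.1% of all tested genes called) and 17 with TMM factors (11 rose and 6 fell, with 54.3% called). DESeq2 on the deposited scale called 26 members and 64.9% of all tested genes. When the DESeq2 p-values were adjusted as if all 55536 annotated genes had been tested, 4 members passed (12.1%, against 6.57% of the tested genes). These were Slc17a4, Slc22a29 and Slc22a27, which were lower, and Slc16a5, which was higher.

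**Figure D2:**
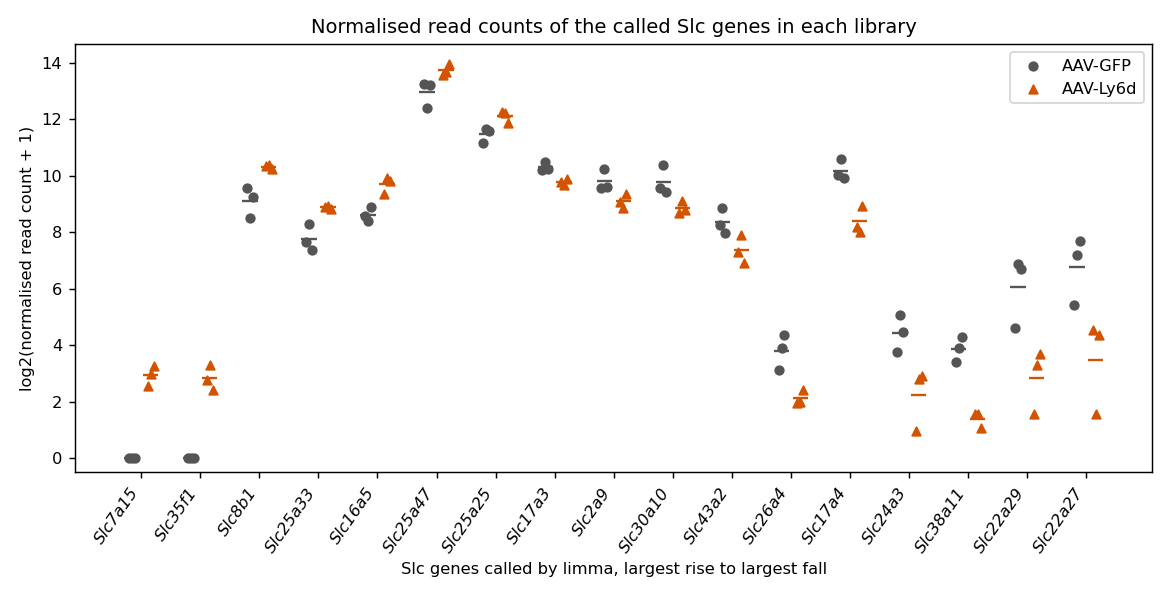
Log2(normalised read count + 1) of the 17 called genes in each of the 6 libraries, with circles for AAV-GFP, triangles for AAV-Ly6d and lines for group means. The groups do not overlap for any of the 17, and the levels run from 0 reads in AAV-GFP (Slc7a15, Slc35f1) to 16102 for Slc25a47.

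Among transporters for organic anions, organic cations and bile acids, of 9 tested members 4 fell, 0 rose and 5 did not pass, and 8 of the 9 had a negative log2 fold change, with a median of -0.65. Of all tested genes 28% fell, 60.7% were lower and the median was -0.67. The class median was thus no lower than that of the table, and after rescaling it was -0.31 against -0.33. The largest falls were in a cluster of related organic anion transporter genes on the minus strand of chromosome 19 (GRCm38), where Slc22a26 (7781041 to 7802667), Slc22a27 (7864388 to 7966027), Slc22a29 (8160165 to 8218900) and Slc22a30 (8335371 to 8405111) lie in this order and the same orientation. Slc22a29 held 23.2, 117 and 102 in the controls against 1.94, 8.97 and 12 with AAV-Ly6d. Its mean was 10.6 times lower in AAV-Ly6d (log2 fold change -3.20, SE 0.77, adjusted p = 0.0345 in limma). Slc22a27 held 42.6, 147 and 207 in the controls against 22.4, 1.99 and 19.6 with AAV-Ly6d, a mean 9.03 times lower (log2 fold change -3.29, SE 0.89, adjusted p = 0.0386 in limma). The AAV-Ly6d values rest on few reads, 2, 9 and 11 for Slc22a29 and 23, 2 and 18 for Slc22a27, which limits the precision of both folds. In both genes AAV-GFP replicate 1 was the lowest control, and its value was still above every AAV-Ly6d library.

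Slc22a26 held 29, 99 and 128 in the controls against 35, 2.99 and 16.3 with AAV-Ly6d, and its groups overlapped, since AAV-GFP replicate 1 lay below AAV-Ly6d replicate 1. It did not pass in limma (log2 fold change -2.43, SE 0.86, adjusted p = 0.0502). Slc22a30 was far more abundant, with 2154, 3581 and 2044 in the controls against 1744, 1469 and 1963 with AAV-Ly6d. Per kilobase of the longest transcript its mean level in AAV-GFP was 998, against 35.6 for Slc22a29, 61.5 for Slc22a27 and 29.9 for Slc22a26. Its mean was 1.5 times lower in AAV-Ly6d and it did not pass (log2 fold change -0.55, SE 0.25, adjusted p = 0.0699 in limma). The differences between the fold changes of these 4 genes were not tested. Slc22a29 still passed in limma when AAV-GFP replicate 1 (adjusted p = 0.0422) or AAV-GFP replicate 2 (0.0483) was left out, and Slc22a27 only without AAV-GFP replicate 1 (0.0482). Over the remaining such fits the adjusted p reached up to 0.0993 for Slc22a29 and 0.0955 for Slc22a27.

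Genes of this cluster share long stretches of sequence, both in their transcripts and, for one pair, at the start. Of the 50-base windows of the longest transcript, 30.5% in Slc22a27 also occur in transcripts of other genes, most of them in Slc22a29 (25.8%). For Slc22a29 the share was 30.5% (24.4% in Slc22a27) and for Slc22a30 36.1% (32% in Slc22a28, which is a gene of the same cluster). For Slc22a26 it was 5.88%, all of it found in AC115715.1. The sources do not say how reads from such windows were assigned, so the single values of Slc22a27, Slc22a29 and Slc22a30 are uncertain. The start regions are shown because Slc22a29, which fell, and Slc22a30, which did not pass and had the smallest fold change of the 4, have related sequences there. Each window runs from 250 bases before to 50 after the annotated start (RefSeq, GRCm38.p6), and capitals mark runs of at least 12 bases that it shares with the window of Slc22a30 in the case of Slc22a29, and with that of Slc22a29 in the other 3.
Slc22a29 (chr19:8218851-8219150, minus strand): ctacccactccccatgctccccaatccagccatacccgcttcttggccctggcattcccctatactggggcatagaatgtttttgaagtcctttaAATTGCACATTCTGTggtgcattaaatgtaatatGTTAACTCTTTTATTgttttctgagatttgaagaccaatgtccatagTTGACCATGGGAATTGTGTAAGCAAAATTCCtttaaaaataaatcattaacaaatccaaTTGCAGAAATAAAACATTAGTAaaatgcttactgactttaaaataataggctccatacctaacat
Slc22a30 (chr19:8405056-8405355, minus strand): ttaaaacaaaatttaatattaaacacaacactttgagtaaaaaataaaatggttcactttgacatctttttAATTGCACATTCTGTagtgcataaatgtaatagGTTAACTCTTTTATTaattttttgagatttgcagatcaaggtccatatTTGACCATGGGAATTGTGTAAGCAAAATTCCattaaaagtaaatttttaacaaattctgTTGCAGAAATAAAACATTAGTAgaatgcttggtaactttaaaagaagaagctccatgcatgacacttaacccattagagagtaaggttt
Slc22a27 (chr19:7965978-7966277, minus strand): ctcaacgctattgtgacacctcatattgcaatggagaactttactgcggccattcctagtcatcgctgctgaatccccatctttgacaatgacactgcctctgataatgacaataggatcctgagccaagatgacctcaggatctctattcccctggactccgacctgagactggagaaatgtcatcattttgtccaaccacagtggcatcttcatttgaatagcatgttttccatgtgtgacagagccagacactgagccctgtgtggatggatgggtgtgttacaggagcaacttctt
Slc22a26 (chr19:7802618-7802917, minus strand): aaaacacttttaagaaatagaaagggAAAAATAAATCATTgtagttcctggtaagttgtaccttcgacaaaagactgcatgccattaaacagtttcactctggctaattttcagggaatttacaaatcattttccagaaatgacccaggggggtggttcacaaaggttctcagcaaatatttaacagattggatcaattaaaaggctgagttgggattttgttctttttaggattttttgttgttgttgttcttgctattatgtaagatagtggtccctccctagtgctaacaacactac
Slc22a29 and Slc22a30 were identical at 210 of 257 aligned bases (81.7%), with a longest shared run of 31 bases. The window of Slc22a27 shared no run of 12 bases with that of Slc22a29, and that of Slc22a26 shared a single run of 14.

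Outside the cluster, Slc17a4, an organic anion transporter of the sodium-phosphate family, had the smallest adjusted p of all members (chromosome 13, 23895890 to 23915009, minus strand). It held 1049, 1541 and 969 in the controls against 295, 260.1 and 494 with AAV-Ly6d, and the highest AAV-Ly6d library was below the lowest control. The mean was 3.39 times lower (log2 fold change -1.79, SE 0.30, adjusted p = 0.0272 in limma). It passed without any one of 5 libraries, and without AAV-Ly6d replicate 1 its adjusted p in limma was 0.0947. Slc17a3 of the same family, a urate and organic anion transporter (chromosome 13, 23839434 to 23860716, plus strand), held 1169.8, 1448 and 1208 in the controls against 885, 826 and 947 with AAV-Ly6d and fell (log2 fold change -0.52, SE 0.18, adjusted p = 0.0478 in limma). After rescaling by the median ratio Slc17a3 no longer passed (log2 fold change -0.18, adjusted p = 0.414 in limma), and among the fits without 1 library it passed only without AAV-GFP replicate 2 (adjusted p 0.0455 to 0.115).

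Slco1b2, the hepatocyte uptake transporter for bilirubin, bile acids and many drugs, had the highest level of all members, a mean of 12455 per kilobase in AAV-GFP. It held 34654, 52332 and 36582 in the controls against 28742, 17483 and 34076 with AAV-Ly6d. Every AAV-Ly6d library was below every control, with a mean of 8094 per kilobase, but the gene did not pass (log2 fold change -0.65, SE 0.30, adjusted p = 0.0684 in limma), and AAV-Ly6d replicate 2 was the lowest by a wide margin. Slc22a23, a family member without a settled substrate, held 2500.2, 3802 and 2262 in the controls against 2022, 1582 and 1906 with AAV-Ly6d and did not pass (adjusted p = 0.0564 in limma). The carnitine transporter gene Slc22a5 was the 1 member of the class with a higher mean, 1337 ± 283 in the controls and 2028 ± 485 with AAV-Ly6d (SD over 3 libraries each), and its groups overlapped. Of its 50-base windows 27.1% occur in other genes, nearly all of them in Slc22a21. In limma its log2 fold change was 0.59 (adjusted p = 0.0625), and after rescaling it passed (0.93, adjusted p = 0.0382).

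Mitochondrial carriers were mostly higher. Of the 8 tested Slc25 genes 3 rose (15.9% of all tested genes did), 0 fell and 5 did not pass, and 7 of the 8 had a higher mean in AAV-Ly6d, where 39.3% of all tested genes did. The median log2 fold change was 0.72, against -0.71 for the 25 members outside this family. The family was set apart after its values had been seen, so this contrast is a description only. Slc25a47, a carrier found mainly in liver (chromosome 12, 108836046 to 108856815, plus strand), was the most abundant, at 4366 per kilobase in AAV-GFP. It held 9861, 5432 and 9460.4 in the controls against 12207, 13273 and 16102 with AAV-Ly6d, and it rose (log2 fold change 0.79, SE 0.26, adjusted p = 0.0467 in limma). Slc25a33, which carries pyrimidine nucleotides, held 201, 312 and 164 in the controls against 482, 483 and 452 with AAV-Ly6d, a mean 2.09 times that of the controls (log2 fold change 1.11, SE 0.27, adjusted p = 0.0345 in limma). Its AAV-Ly6d libraries lay close together, while the controls were more spread.

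Slc25a25, a calcium-regulated carrier that exchanges ATP-Mg for phosphate, held 2312, 3207 and 3079 in the controls against 4978, 4811 and 3726 with AAV-Ly6d and rose (log2 fold change 0.66, SE 0.21, adjusted p = 0.0435 in limma). One of its 3 annotated start regions holds the motif TGACGTCA, the cAMP response element bound by CREB proteins, which is in capitals in the RefSeq window (GRCm38.p6) and ends 142 bases before the start.
Slc25a25 (chr2:32424017-32424316, minus strand): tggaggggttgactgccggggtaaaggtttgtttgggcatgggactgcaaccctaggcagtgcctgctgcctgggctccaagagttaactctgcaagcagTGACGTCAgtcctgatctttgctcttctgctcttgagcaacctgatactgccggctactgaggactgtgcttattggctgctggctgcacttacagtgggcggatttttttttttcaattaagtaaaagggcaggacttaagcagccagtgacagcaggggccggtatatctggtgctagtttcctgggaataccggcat
Of 28 members with a start region in the RefSeq table Slc25a25 alone had this motif, which is found on either strand in 2.03% of 27025 genes. Of the other motifs searched on both strands, TTCNNNGAA (STAT) was in 4 of 28 members and 9.55% of genes, and GTTAAT (part of the HNF1 motif) in 4 of 28 and 8.24%. CAAAGTCCA and CAAAGGTCA (HNF4), TTGCGCAA (C/EBP) and TCAAGGTCA (ERR) were in 0 of 28 members and in 0.555%, 0.544%, 0.207% and 0.466% of genes. A match in these windows is a description of letters only.

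Among the carriers that did not pass, Slc25a34, a carrier with no settled substrate, held 164, 60.3 and 126 in the controls against 206, 200.3 and 277 with AAV-Ly6d (adjusted p = 0.0522 in limma). Slc25a32, the folate and FAD carrier, held 907, 1041 and 905 in the controls against 1320.1, 1209 and 1369 with AAV-Ly6d (adjusted p = 0.0548). Slc25a51, which imports NAD, held 1799, 1312 and 1779 in the controls against 2967, 2346 and 1845 with AAV-Ly6d (adjusted p = 0.0637). These genes had higher values in every AAV-Ly6d library than in any control, and all passed after rescaling by the median ratio, when 6 of the 8 carriers rose, as did 36.2% of all genes. The glutamate carrier gene Slc25a22 held 5300.4, 1688 and 3656 in the controls against 5996, 6061 and 5796 with AAV-Ly6d and was set apart by AAV-GFP replicate 2. Its log2 fold change in limma was 0.90 (adjusted p = 0.0625) and 0.43 without that library (adjusted p = 0.0701).

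Slc25a37, mitoferrin 1, which imports iron into mitochondria and is most active in erythroid cells, was the exception. It held 582, 581 and 583 in the controls against 479, 346 and 394 with AAV-Ly6d, a mean 1.43 times lower (log2 fold change -0.53, SE 0.20, adjusted p = 0.0549 in limma). The sum of the 4 erythroid markers in the table, all globin genes, was 2704 to 5832 in AAV-GFP and 1896 to 2849 in AAV-Ly6d, and its part in this value was not tested. Genes of the mitochondrial inner membrane outside Slc25 were not scored as a group. By its number Slc8b1, the sodium-calcium exchanger NCLX of that membrane, belongs to the inorganic ions, where 1 tested gene rose and 1 fell. Slc8b1 was the gene that rose. It held 757, 363 and 613 in the controls against 1318, 1340.4 and 1212 with AAV-Ly6d, a mean 2.23 times that of the controls (log2 fold change 1.22, SE 0.28, adjusted p = 0.0324 in limma). Slc8b1 passed without AAV-GFP replicate 1 (0.0473) or AAV-GFP replicate 2 (0.0229) and in 0 of the other 4 such fits.

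The calls among the carriers depended on single libraries. The count of 7 of 8 with a higher mean stayed the same under each alternative. Since no member of any class changed direction, this gives the carriers no support of their own. Without AAV-GFP replicate 2 limma called 4 of the 8, Slc25a33, Slc25a25, Slc25a47 and Slc25a32, and in each of the other 5 fits without 1 library it called 0, with 3 or 4 at an unadjusted p under 0.05. Slc25a47 had a log2 fold change of 0.79 with all libraries and 0.51 without AAV-GFP replicate 2. Exons of Gm13068 on the other strand cover 14.9% of the exonic bases of Slc25a33, and those of Naif1 cover 4.82% of Slc25a25. Among other called members such overlap covers 9.18% of Slc43a2, 9.13% of Slc30a10 and 2.81% of Slc16a5. The strand setting of the counting is not given, so these reads cannot be told apart.

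Transcript length moved with the fold changes across the table. The median log2 fold change was 0.56 in the 593 genes with the shortest transcripts (up to 2729 bases), -0.67 in the 593 of middle length and -0.85 in the 593 longest (from 4764 bases), and 64.4%, 40.1% and 13.5% of genes were higher. The mitochondrial carriers had a median of 4130 bases, against 3622 for all tested genes. Those that rose had 1887 (Slc25a33), 1890 (Slc25a47) and 3821 bases (Slc25a25). The longest carrier, Slc25a37 with 5927 bases, was the only one with a lower mean. All 3 carriers among the short genes and both of middle length were higher, as were 2 of the 3 long ones, Slc25a22 and Slc25a32. Across the 8 carriers Spearman's rho between length and log2 fold change was -0.81, across the 33 members -0.15 and across all 1780 tested genes -0.30, all given as descriptions across genes of the same libraries. The part of length in the members' values was not tested.

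**Figure D3:**
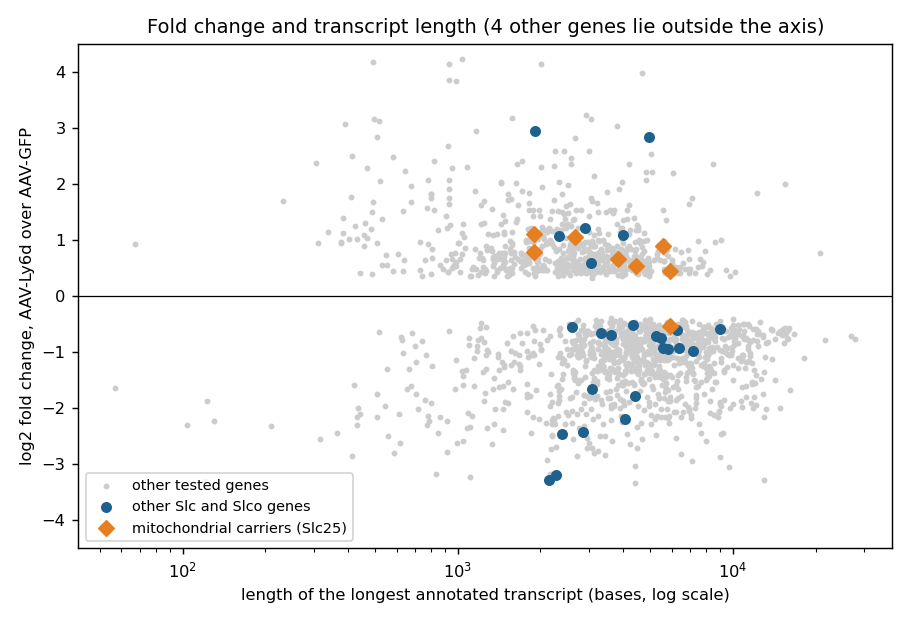
Length of the longest annotated transcript (bases, log scale, x axis) against log2 fold change (AAV-Ly6d over AAV-GFP, y axis), with 1 point per tested gene, grey for genes that are no solute carriers, of which 4 lie outside the axis. Most genes from 4764 bases lie below 0. Of the 8 mitochondrial carriers (diamonds) 7 lie above 0, at lengths from 1887 to 5905 bases, and the longest, at 5927 bases, lies below.

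The sugar transporter families had 3 tested genes, of which 1 fell, where 28% of all tested genes did. Slc2a9, a urate transporter of the glucose transporter family (chromosome 5, 38349273 to 38503143, minus strand), held 768, 1207 and 775 in the controls against 538, 465 and 663 with AAV-Ly6d and fell (log2 fold change -0.70, SE 0.25, adjusted p = 0.0497 in limma). It passed in 0 of the 6 fits without 1 library (adjusted p 0.0614 to 0.121) and not after rescaling (log2 fold change -0.36, adjusted p = 0.187). Slc2a2, the gene of GLUT2, the main glucose transporter of hepatocytes, held 8599, 15999 and 7398 in the controls against 6078, 3653 and 6637 with AAV-Ly6d. Its groups did not overlap, and its mean per kilobase was 1915 in AAV-GFP and 979.7 in AAV-Ly6d, yet it did not pass (log2 fold change -0.93, SE 0.34, adjusted p = 0.0531 in limma). AAV-GFP replicate 2 was far above the other controls, and without it the log2 fold change was -0.59 (adjusted p = 0.0861). After rescaling by the median ratio the log2 fold change of Slc2a2 was also -0.59 (adjusted p = 0.139 in limma). Its transcript has 5569 bases, and the median of the 593 longest tested genes was -0.85. Slc37a1, an exchanger of glucose-6-phosphate in the endoplasmic reticulum, held 57.1, 22.6 and 61.6 in the controls against 251, 77.7 and 40.3 with AAV-Ly6d, where AAV-Ly6d replicate 1 alone was far above the rest and the groups overlapped (adjusted p = 0.152 in limma).

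Of 4 tested amino acid transporters 2 fell, where 28% of all tested genes did. The 1 counted as a rise, Slc7a15, had no reads in the controls. Slc43a2, the gene of LAT4, which exports branched-chain and other large neutral amino acids, held 303, 461 and 249 in the controls against 156, 240.2 and 121 with AAV-Ly6d and fell (log2 fold change -0.98, SE 0.34, adjusted p = 0.0494 in limma). Without any one library it did not pass (adjusted p 0.0611 to 0.12), nor after rescaling (log2 fold change -0.64, adjusted p = 0.0992). Slc36a1, a proton-coupled exporter of small amino acids from lysosomes, held 590.2, 988 and 612 in the controls against 516, 434 and 360.1 with AAV-Ly6d. Its groups did not overlap and it did not pass (log2 fold change -0.71, SE 0.26, adjusted p = 0.0531 in limma). Slc38a11, a little studied member of the sodium-coupled neutral amino acid transporters, was near the lower limit, with 9.68, 14 and 18.6 in the controls against 1.94, 1.99 and 1.09 with AAV-Ly6d, which are 10, 13 and 22 reads against 2, 2 and 1. It fell (log2 fold change -2.47, SE 0.49, adjusted p = 0.0287 in limma) and kept its call without AAV-GFP replicate 1 (0.0491) or AAV-GFP replicate 2 (0.0329), with adjusted p-values up to 0.0955 in the other 4 fits.

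Detected in 1 group only, and at few reads, were 3 members. Slc7a15, of the Slc7 family of amino acid transporters, had 0 reads in every control and values of 4.86, 6.98 and 8.7 in AAV-Ly6d, from 20 reads. With 3 reads taken as the floor of a group, the AAV-Ly6d mean was 7.11 times that floor. Such a ratio makes no allowance for the sampling of so few reads. Slc35f1, from a family of nucleotide sugar transporters but with no settled substrate, likewise had 0 reads in AAV-GFP. It held 5.83, 8.97 and 4.35 in AAV-Ly6d, from 19 reads, a mean of 6.63 times the floor. Both were counted as rises in limma, but they met the filter only through the AAV-Ly6d libraries, so that call is no support for a difference. Of all tested genes 45 met the filter through 1 group only, and 41 of these were called. The reverse case was Slc7a10, a small neutral amino acid transporter known from neurons and fat cells, which held 0, 5.38 and 11 in AAV-GFP and 0 in AAV-Ly6d, from 18 reads. Its AAV-GFP mean was 5.35 times the same floor, but AAV-GFP replicate 1 had 0 reads like every AAV-Ly6d library, so the groups overlapped. The gene was not tested because only 2 libraries had a value, and no decrease is claimed.

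Of the metal transporters 1 of 3 fell and all 3 had lower means. Of all tested genes 28% fell and 60.7% were lower. The 3 transcripts are 5498 to 9020 bases long, and of the 593 longest tested genes 13.5% were higher. Slc30a10, the manganese exporter of hepatocytes (chromosome 1, 185454848 to 185468762, plus strand), held 767, 1342 and 688 in the controls against 413, 552 and 438 with AAV-Ly6d, with every AAV-Ly6d library below every control (log2 fold change -0.94, SE 0.28, adjusted p = 0.0414 in limma). It passed without AAV-GFP replicate 2 (log2 fold change -0.65, adjusted p = 0.0413) and in 0 of the other 5 fits without 1 library (adjusted p up to 0.109), and its adjusted p was 0.0597 after rescaling. The zinc importer gene Slc39a10 held 110.3, 181 and 126 in the controls against 65.1, 91.7 and 88.1 with AAV-Ly6d (adjusted p = 0.0600 in limma). Slc30a7, which loads zinc into the Golgi, held 470.2, 984 and 489 in the controls against 379, 432 and 411 with AAV-Ly6d (adjusted p = 0.0943). In both the groups did not overlap and AAV-GFP replicate 2 was the highest library. Slc23a2, the sodium-coupled ascorbate transporter SVCT2, held 1004, 1599 and 610.1 in the controls against 583, 355 and 678 with AAV-Ly6d, with overlapping groups (adjusted p = 0.0607 in limma).

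Carriers of small anions and cations went both ways. Slc16a5, a member of the monocarboxylate transporter family that carries drugs such as bumetanide (chromosome 11, 115462474 to 115474398, plus strand), held 382, 338 and 478 in the controls against 660.0, 963 and 914 with AAV-Ly6d and rose (log2 fold change 1.08, SE 0.23, adjusted p = 0.0324 in limma). It passed without AAV-GFP replicate 2 (0.0327) and AAV-GFP replicate 3 (0.0455), and in 0 of the other 4 fits without 1 library (up to 0.0947). Slc24a3, a potassium-dependent sodium-calcium exchanger, held 12.6, 32.3 and 21.1 in the controls against 0.972, 5.98 and 6.53 with AAV-Ly6d and fell (log2 fold change -2.20, SE 0.65, adjusted p = 0.0414 in limma). Slc26a4, the gene of pendrin, an exchanger of chloride, iodide and bicarbonate, held 7.74, 14 and 19.4 in the controls against 2.92, 2.99 and 4.35 with AAV-Ly6d and fell (log2 fold change -1.67, SE 0.50, adjusted p = 0.0414 in limma). Both are low in this liver, at 1 to 30 reads per library, and both lost the call without any one library (adjusted p 0.0563 to 0.104 and 0.0560 to 0.110).

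Other membrane transport genes, a list of ATP-binding cassette genes, aquaporins, ion pumps and further uptake genes, were lower in 19 of 21 tested cases, where 60.7% of all tested genes were lower. Of 122 annotated genes on that list 21 were tested, and 12 fell, 0 rose and 9 did not pass, with a median log2 fold change of -0.95 (28% of all tested genes fell, with a median of -0.67). Most of the 21 have transcripts of 4764 bases or more. Among the 593 tested genes of such length 13.5% were higher and the median was -0.85, and the part of length in this list was not tested. Of 10 tested ATP-binding cassette genes 6 fell. Abcb11, the bile salt export pump of the canalicular membrane, held 11848, 14744 and 8384 in the controls against 5696, 6646 and 7305 with AAV-Ly6d and fell (log2 fold change -0.80, SE 0.24, adjusted p = 0.0414 in limma). Together with the values of Slco1b2 this gives lower mean counts for a basolateral and a canalicular transporter of bile acids. Only Abcb11 passed, and both changes were near medians of the table. For Slco1b2 the log2 fold change was -0.65, where the median of all tested genes was -0.67. With median-ratio scaling these values were -0.31 (adjusted p = 0.400 in limma) and -0.33. The Abcb11 transcript has 5025 bases, and its -0.80 compares with the median of -0.85 in the 593 longest genes. The water channel gene Aqp1, which liver endothelium and bile ducts express, held 2476, 2159 and 2154 in the controls against 935, 825 and 957 with AAV-Ly6d and fell (log2 fold change -1.32, SE 0.17, adjusted p = 0.0141 in limma). Cd36, a fatty acid uptake receptor, held 2217, 3678 and 5777 in the controls against 1601, 1133 and 1583 with AAV-Ly6d and fell (log2 fold change -1.34, SE 0.34, adjusted p = 0.0351 in limma). The 2 genes with higher means, Atp2a2, a calcium pump of the endoplasmic reticulum, and Abcf1, a translation factor related to ABC transporters, did not pass (log2 fold changes 0.42 and 0.45, adjusted p = 0.0677 and 0.0655 in limma).

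The AAV-GFP libraries differed among themselves for many members. In 22 of 33 members (66.7%) AAV-GFP replicate 2 was the control library farthest from the AAV-Ly6d mean, as it was for 74.0% of all tested genes. Slc2a2, Slc25a22, Slc25a47 and Slc30a7 are examples. For Slc22a26, Slc22a27 and Slc22a29 AAV-GFP replicate 1 stood apart, below the other controls and nearest to the AAV-Ly6d mean. Without AAV-GFP replicate 2 the median log2 fold change was -0.43 over the members, 0.51 over the mitochondrial carriers and -0.47 over the transporters of organic ions and bile acids.

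**Figure D4:**
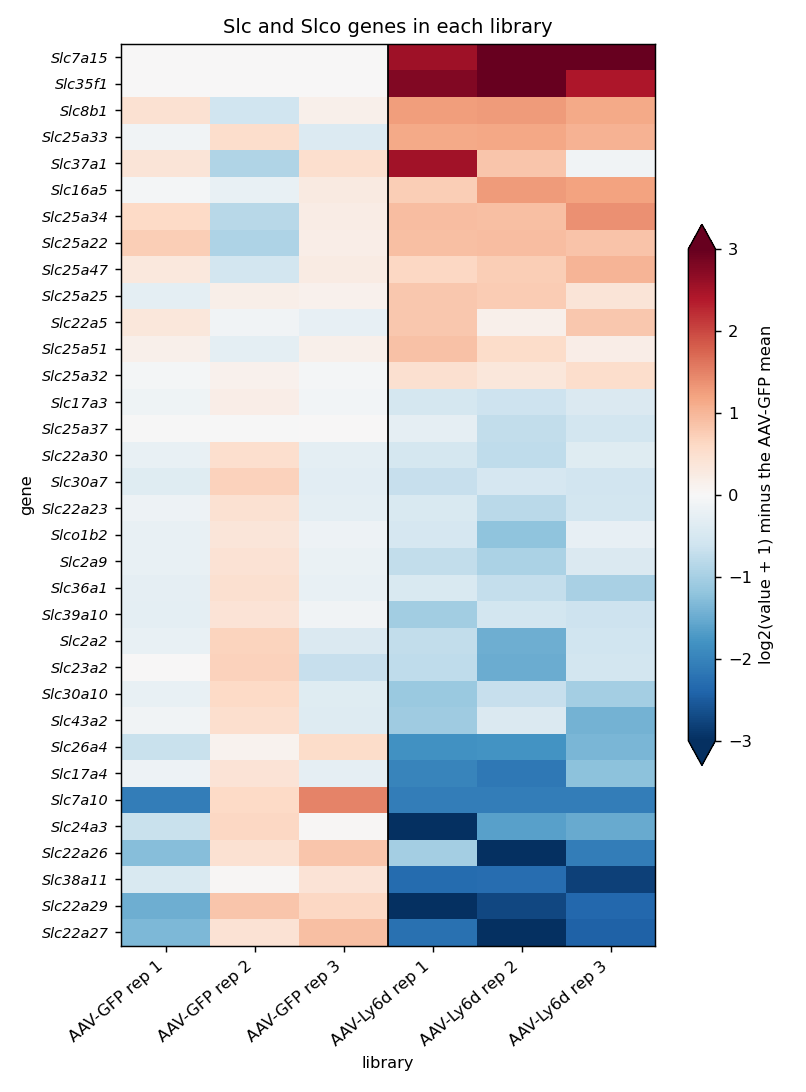
Log2(value + 1) minus the AAV-GFP mean of each gene (colour, blue lower and red higher, cut at -3 and 3) for the 34 genes (rows, ordered by the AAV-Ly6d mean) in the 6 libraries (columns). Slc2a2, Slc23a2 and Slc30a7 are higher in AAV-GFP replicate 2 than in the other controls, and in AAV-GFP replicate 1 Slc22a26, Slc22a27 and Slc22a29 are below them.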

How the data were processed

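Liver RNA was sequenced in 3 AAV-GFP and 3 AAV-Ly6d libraries, by standard Illumina protocols per the labels. Bowtie 0.12.2 and mm10 come from the submitters' processing notes, which give no role for either. Counter, strand setting, annotation and normalisation were not given in the sources used here. Normalised read counts, a non-negative signal, were deposited by the authors for 1834 genes. Values of a library were multiples of a fixed step (100% came out whole, to 0.001), as when reads are divided by a size factor per library, and 1 read was worth 0.844 to 1.09. Reads recovered this way total 3248078 to 4359932 per library over the table, while full depths are unknown. For AAV-Ly6d replicate 2 the step was 0.997, close to 1, and its reads entered the count tests, which are added alternatives.

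Symbols matched 1833 of 1834 identifiers (GENCODE M21, GRCm38, the mm10 assembly). Limma 3.58.1 in R 4.3.3 was fitted to log2(value + 1) over the 1780 genes in which 3 or more libraries had a value of 1 or more, with a mean-variance trend and no covariates. Fold changes on this scale understate the change of low genes. On simulated data the fit was checked for recovery of known changes. The substrate classes follow family numbers. The members, classes, marker lists and tests were chosen with earlier results of these data known, and every member could be named. The mitochondrial carriers were set apart as a group after their values had been seen. If the table was chosen on these libraries, adjusted p-values within it understate the error. Alternatives were a replicate block, leaving out each library, other filters, pseudocounts, scaling, thresholds and, added after seeing the data, edgeR 4.0.16 (quasi-likelihood) and DESeq2 1.42.0 on the recovered reads.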

Additional observations from a re-analysis of the deposited data

How the results depend on the processing

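No member changed direction in the 19 alternatives run. Of 617 values of single members under an alternative, 428 kept their side of the threshold, 171 lost the call and 18 gained it. Limma called 17 members and 3 mitochondrial carriers with all libraries. Leaving out 1 library gave 0 to 13 members, 0 to 4 carriers and a member median of -0.72 to -0.43, against -0.58. A threshold of 0.01 left 0 members and 0 carriers in limma (29 and 8 had an unadjusted p under 0.05) and 0.0562% of all genes, and an adjustment of limma over all annotated genes left the same counts and share, where DESeq2 had 4 and 0. A filter at 10 called 11 members (40% of all genes), and a fit without the trend 11 members and 1 carrier (30.8%). After median-ratio rescaling the median was -0.24 and 6 carriers were called, and with edgeR and TMM factors the median was -0.31 and 6 carriers were called. EdgeR on the deposited scale called 10 members and 1 carrier, and DESeq2 called 26 members and 6 carriers (26.1% and 64.9% of all genes). Mitochondrial carriers with a higher mean numbered 7 of 8 under every alternative run, which follows from the unchanged directions of all members.

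The replicate block left 1 member, 0 carriers and 2.70% of all genes, with 23 members and 5 carriers at an unadjusted p under 0.05. Same-numbered libraries share a number only: the correlations of their deviations from the group means were -0.02, -0.05 and -0.06, and no library correlated best with its own number. Counting limits the members with fewer than 30 reads in every library of a group: Slc22a27, Slc22a29, Slc7a15, Slc35f1, Slc7a10, Slc38a11, Slc24a3 and Slc26a4.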
